A study of Rattus norvegicus with 24 samples.

Results

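The striatum is divided here into its dorsal part, which receives mainly motor and associative cortical input, and its ventral part, which includes the nucleus accumbens. Both divisions consist largely of GABAergic spiny projection neurons. Neurons of the indirect pathway carry dopamine D2 receptors (Drd2), adenosine receptors of the type encoded by Adora2a and enkephalin, and neurons of the direct pathway carry D1 receptors, substance P and dynorphin.

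The comparison was the difference between the dorsal and the ventral striatum array within each of 4 groups of male rats at postnatal day 55 to 65, all on Affymetrix Rat RAE 230 2.0 arrays. The groups were 8 Sprague-Dawley control rats (SD), 4 Sprague-Dawley rats exposed to polychlorinated biphenyls (SDpcb), 8 spontaneously hypertensive rats (SHR) and 8 Wistar-Kyoto control rats (WKY). SHR and SDpcb rats served as a genetic and an environmental model of attention deficit hyperactivity disorder. WKY rats were the controls of SHR, and SD rats those of SDpcb. The members are therefore the 8 striatal arrays of 24 in the series, and n = 4 paired differences. Each division of each group was measured on 1 array. Whether RNA of several rats was pooled, and the biphenyl dose, are not given in the sources used here. The p-values therefore rest on 4 pairs of arrays and do not measure the spread between rats. Their variances draw less on the 4 differences of a gene (3 degrees of freedom) than on the trend over all probe sets (9.87). Values in the 4 groups are given in the order SD, SDpcb, SHR, WKY. A difference is the dorsal minus the ventral log2(signal + 1), with its standard error (SE) from limma, so that a positive value means a higher signal in dorsal striatum. The SE uses the same variances and is not the spread of the 4 differences alone. It was 0.46 for Synpo2 and 0.085 for Rasd2, whose 4 differences had standard deviations of 1.60 and 0.037.

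The arrays carried striatal RNA by their markers. Adora2a had a mean log2 level of 11.98 in dorsal and 11.10 in ventral striatum, and of 4.80 to 6.13 in prefrontal cortex, hippocampus, substantia nigra/VTA and cerebellar vermis. Drd2 had 10.56 and 9.72 in the striatal divisions and 4.78 to 7.0 in the other regions. Of 5 markers of other regions, 4 were under the filter on dim probe sets in the striatum. The dopamine transporter gene Slc6a3 had a mean of 5.29 in dorsal and 5.55 in ventral striatum against 12.10 in substantia nigra/VTA, and the Purkinje cell gene Pcp2 had 4.77 and 6.0 against 13.42 in vermis. Th had 4.31 and 4.65 against 10.29 in substantia nigra/VTA, and the granule cell gene Gabra6 had 5.52 and 5.37 against 10.57 in vermis. The fifth, the cortical and hippocampal transcription factor gene Neurod6, passed the filter, with 6.64 in dorsal and 7.33 in ventral striatum against 9.79 in prefrontal cortex and 10.70 in hippocampus. Both SDpcb striatal arrays stood apart in scale, with 40.0% and 39.0% of probe sets under a signal of 50 against 19.9% to 32.6% on the other 6 striatal arrays.

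A set of signalling genes of striatal projection neurons was higher in dorsal striatum, and the calcitonin receptor, the peptide CART and several genes of meningeal and fibroblast cells were higher in ventral striatum. Of 15521 probe sets tested, 338 (2.18%) passed an adjusted p of 0.05 in limma, with 182 (1.17%) higher in dorsal and 156 (1.01%) higher in ventral striatum. Counted once per gene by the brightest probe set, 213 of 9018 genes passed (2.36%), 119 (1.32%) higher in dorsal and 94 (1.04%) higher in ventral striatum. The difference had the same sign in all 4 groups for 118 of the 119 (1.31% of all genes) and for all 94 (1.04%). The exception was Ak7, with a difference of -0.01 in SDpcb. Among all 9018 genes, 1987 (22.0%) had the same sign in all 4 groups. The 4 dorsal and 4 ventral arrays did not overlap for 55 of the 119 dorsal genes and 47 of the 94 ventral genes, against 1.53% and 1.33% of all genes, shares that describe the genes only, since the same arrays chose them.

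**Figure D1:**
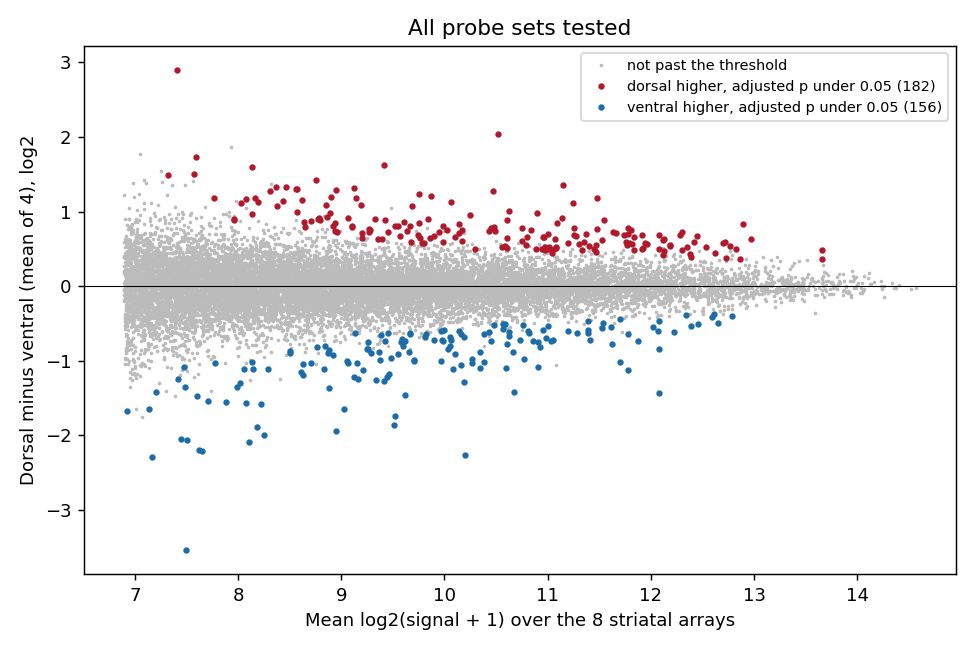
The mean log2(signal + 1) over the 8 striatal arrays (x axis) is plotted against the mean dorsal minus ventral difference of the 4 groups (y axis) for the 15521 probe sets tested. Red points are the 182 probe sets higher in dorsal striatum and blue points the 156 higher in ventral striatum at adjusted p under 0.05, and grey points are the rest.

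The calls rested on pairing within groups, on the variance trend and on the SHR pair. Without the group as a block limma called 0 probe sets (617 at an unadjusted p under 0.05), and without the trend it called 1 (1994 unadjusted). Without the SHR arrays 25 of the 338 kept their call and without the WKY arrays 130. Without the SDpcb arrays, which stood apart in scale, 207 dorsal and 219 ventral probe sets were called and 280 of the 338 kept their call, with Itgb6, Ier5 and Dusp1 lost among the named genes. Of the 50 called genes named by rule, 11 kept their call without SHR: Slc22a3, Dach1, Rxrg, Syndig1l, Calcr, Cartpt, Gng7, Rasd2, Rgs9, Cnr1 and Nnat. The exact sign-flip permutation test of 4 differences cannot give a p below 1 in 8.

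The largest difference of any named gene was that of Calcr, on chromosome 4, which encodes the calcitonin receptor, a receptor for calcitonin and, with accessory proteins, for amylin. Its signal was 36.3, 21.0, 105 and 88.8 in dorsal striatum and 510, 360, 1036 and 753 in ventral striatum. Each ventral array lay above every dorsal array, and the difference was -3.54 ± 0.26 (SE, n = 4; adjusted p = 3.37e-05, limma). Its 4 differences lay between -4.03 and -3.07. Its mean log2 level of 9.27 in ventral striatum was near the 9.89 of substantia nigra/VTA and above the 5.0 to 6.08 of the other regions. Calcr was also the 1 call that remained without the variance trend.

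Cartpt, which encodes the neuropeptide precursor of CART, had signals of 253, 153, 722 and 762 in dorsal and 992, 839, 1684 and 2655 in ventral striatum. The 4 ventral values all exceeded the 4 dorsal values, with a difference of -1.86 ± 0.18 (adjusted p = 0.000369, limma). Nnat, which encodes neuronatin, an imprinted proteolipid, had 1350, 807, 2046 and 1315 in dorsal and 2974, 1562, 4504 and 2895 in ventral striatum. Its arrays overlapped between divisions because the SDpcb arrays were low in both, yet the 4 paired differences lay between -1.14 and -0.95, with a mean of -1.09 ± 0.11 (adjusted p = 0.000369, limma). Nrp2, a receptor for class 3 semaphorins, had 496, 230, 172 and 202 against 930, 613, 1259 and 1226, with no overlap and a difference of -1.94 ± 0.27 (adjusted p = 0.00375, limma). Nrp2 had been placed among genes known for dorsal striatum, so its direction was opposite to its list.

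On the dorsal side, Slc22a3, which encodes organic cation transporter 3, a low-affinity carrier of monoamines, had signals of 2647, 3965, 2924 and 2576 in dorsal striatum. In ventral striatum it had 476, 1872, 588 and 519. The divisions did not overlap, and the difference was 2.04 ± 0.19 (adjusted p = 0.000347, limma), with 1.08 in SDpcb and 2.31 to 2.47 in the other groups. Syndig1l, a transmembrane protein also called capucin, had 2208, 2362, 2350 and 1943 against 949, 1007, 837 and 853. It was the most even of the large dorsal differences, 1.19 to 1.49 over the groups with a mean of 1.28 ± 0.12 (adjusted p = 0.000336, limma). Synpo2, an actin-binding protein best known from muscle, had the largest dorsal mean, 408, 363, 475 and 661 against 11.4, 159, 82.7 and 90.4. Its differences ranged from 1.19 in SDpcb to 5.05 in SD, where the ventral array was dimmest, with a mean of 2.90 ± 0.46 (adjusted p = 0.00652, limma).

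The other dorsal genes of the leading 12 were Krt17 (keratin 17), Dmkn (dermokine), Itgb6 (an integrin beta subunit), Dach1 (a transcriptional cofactor), Tnni3 (cardiac troponin I), T2, Rxrg (a retinoid X receptor), Top2a (a DNA topoisomerase) and Cdhr4 (a cadherin-related protein). Their mean differences ran from 1.28 to 1.74. Rxrg had 582, 1126, 1090 and 824 against 280, 476, 282 and 409, without overlap, and a difference of 1.31 ± 0.18 (adjusted p = 0.00352, limma). Dach1 was the brightest of them, with 3336, 5213, 2594 and 3778 against 988, 3322, 738 and 1658. Its divisions overlapped because the SDpcb ventral array exceeded the SHR dorsal array. A second probe set of Top2a gave 1.78 and one of T2 gave 0.95, and neither passed (adjusted p = 0.0771 and 0.0638, limma).

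The other ventral genes of the leading 12 were Slc13a4 (a sulfate transporter), Igfbp2 and Igf2 (an insulin-like growth factor and a protein that binds such factors), Tmem200a, Pde1a (a calmodulin-dependent phosphodiesterase), Gjb2 (connexin 26), Slc6a20a (a proline transporter), Slc30a3 (the zinc transporter of synaptic vesicles) and Ogn (a proteoglycan of connective tissue). Their differences ran from -2.29 to -1.65 and varied widely between groups. Pde1a had 193, 142, 10.3 and 171 in dorsal and 334, 368, 222 and 575 in ventral striatum, with the divisions apart and a difference of -2.05 ± 0.44 (adjusted p = 0.0318, limma). Its difference was -4.30 in SHR, where the dorsal signal was lowest, and -1.74 to -0.79 in the other groups. Tmem200a gave -4.88 in SHR and -1.75 to -0.69 in the other groups. Slc6a20a had 439, 647, 430 and 210 against 2399, 1153, 1894 and 614, a difference of -1.74 ± 0.22 (adjusted p = 0.00206, limma). Detection calls were not used, so the background of a dim probe set is unknown and log2 differences that rest on signals near 10 are imprecise.

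**Figure D2:**
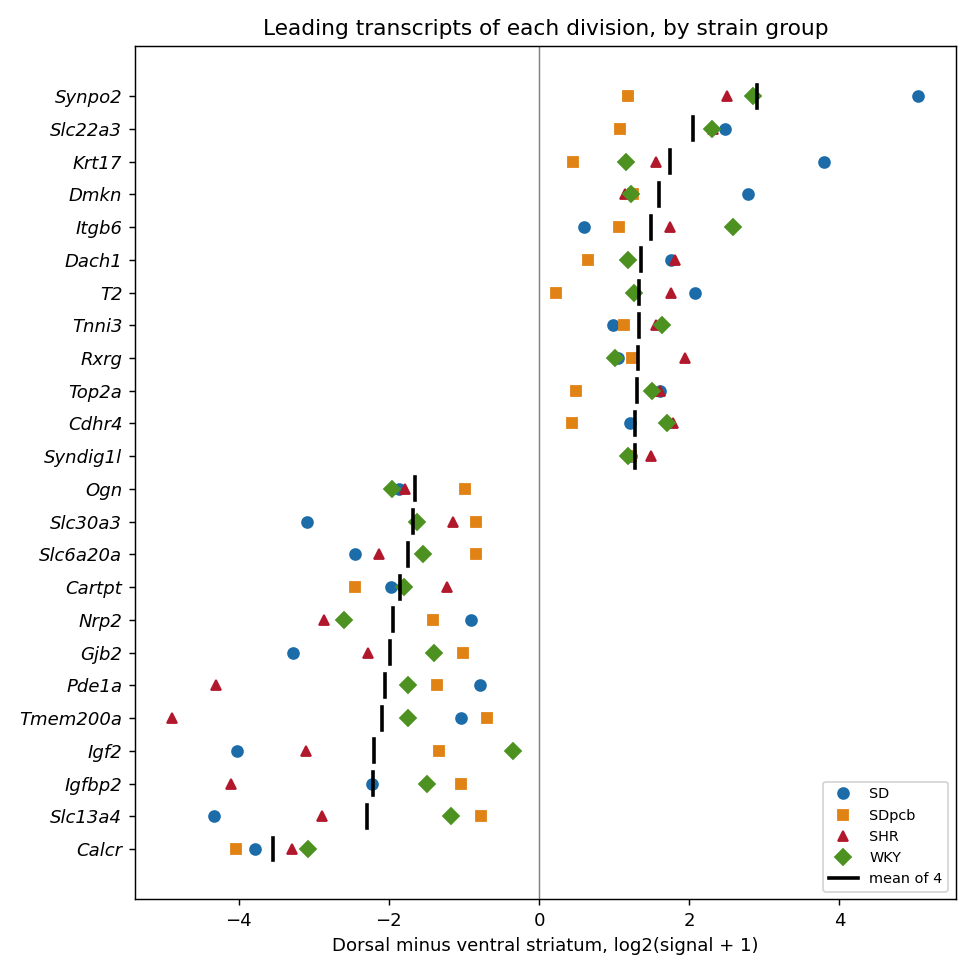
Dorsal minus ventral log2(signal + 1) differences (x axis) are shown for the 12 genes with the largest mean difference in each direction among those called with 1 sign in all groups (y axis). Markers are the 4 groups and black bars their means. Syndig1l has the closest markers, while SD stands far out for Synpo2 and Krt17 and SHR for Tmem200a and Pde1a.

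**Figure D3:**
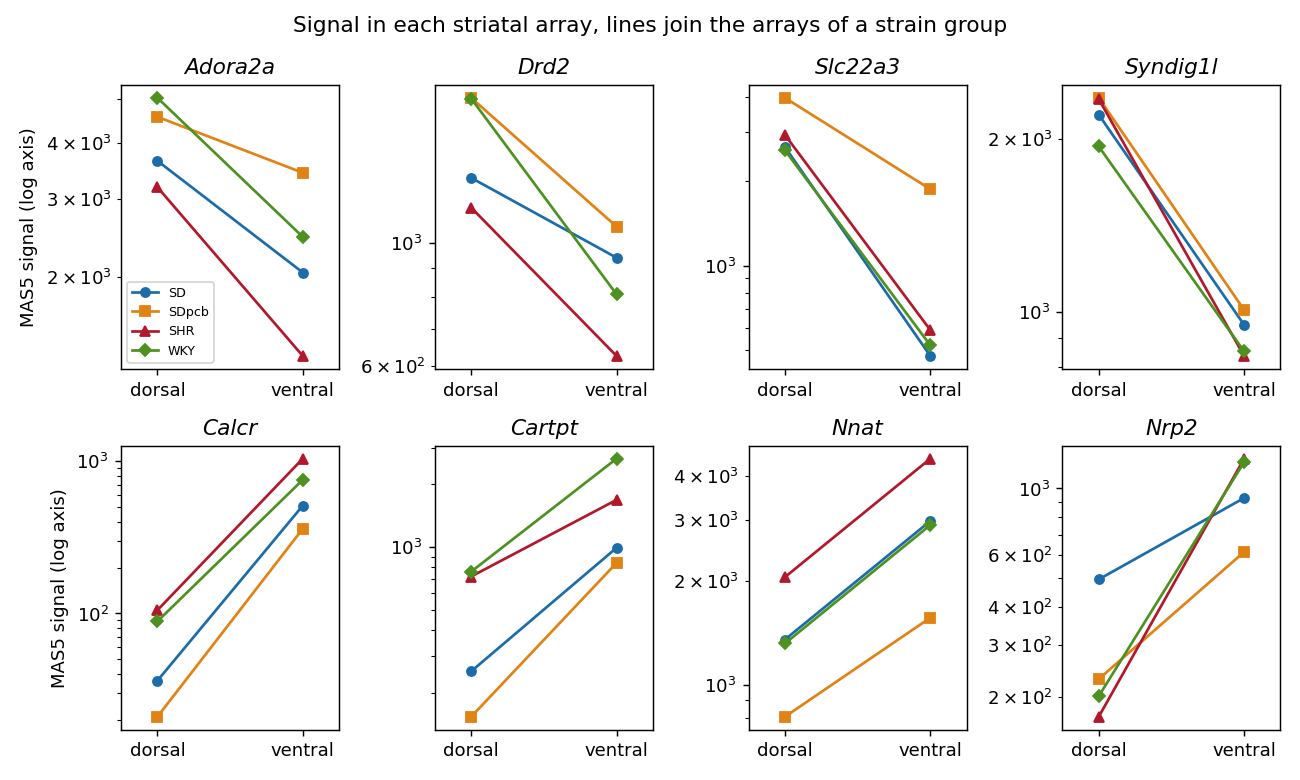
MAS5 signals on log axes are shown for 8 genes, with a line joining the dorsal and ventral array of each group. Every line falls from dorsal to ventral for Adora2a, Drd2, Slc22a3 and Syndig1l and rises for Calcr, Cartpt, Nnat and Nrp2.

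Of the indirect pathway markers, Drd2, Adora2a and Syndig1l passed with dorsal higher, 3 of 8 tested. Drd2 had signals of 1313, 1833, 1160 and 1828 in dorsal and 941, 1071, 625 and 808 in ventral striatum. All dorsal values exceeded all ventral values, and the difference was 0.83 ± 0.14 (adjusted p = 0.00839, limma), smallest in SD (0.48) and largest in WKY (1.18). Adora2a had 3645, 4572, 3183 and 5043 against 2051, 3428, 1335 and 2464. The SDpcb ventral array exceeded the SHR dorsal array, and the difference was 0.88 ± 0.13 (adjusted p = 0.00389, limma). The dimmer second Adora2a probe set gave 0.65 and did not pass (adjusted p = 0.299, limma). Without the SHR arrays Drd2 gave 0.81 (adjusted p = 0.10, limma) and Adora2a 0.76 (adjusted p = 0.0663, limma).

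Of 8 indirect pathway genes tested, 3 passed with dorsal higher (Drd2, Adora2a and Syndig1l) and 0 with ventral higher, against 1.32% and 1.04% of all genes, and 7 had an unadjusted p under 0.05, as had 14.3% of all genes. The median difference was 0.62, against 0.00 over all genes tested. The enkephalin gene Penk gave 0.31 (adjusted p = 0.0538, limma) and the orphan receptor Gpr6 0.74 (adjusted p = 0.0519, limma), neither past the threshold. Gucy1a1, a subunit gene of soluble guanylyl cyclase, had the opposite sign, -0.09 (95% interval -0.27 to 0.09). Of 8 direct pathway genes, 1 passed, the transcription factor Ebf1 (0.74 ± 0.16, adjusted p = 0.0348, limma), and the list median was 0.23. The D1 receptor gene Drd1 gave 0.18 (95% interval -0.10 to 0.46), the substance P precursor gene Tac1 0.33 and the dynorphin gene Pdyn -0.06, and none of the 3 passed. Whether the lists of the pathways differ from each other was not tested. In tissue RNA, fewer cells of a type and less RNA per cell cannot be told apart.

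Of the genes shared by both classes of projection neuron, 12 of 19 passed with dorsal higher and 0 with ventral higher, against 1.32% and 1.04% of all genes. Their median difference was 0.54. In the lists below, a member counted as higher in a division is one that passed, and the same shares of all genes apply. Shared genes that passed included the G protein subunit Gng7, with signals of 2469, 3053, 4305 and 2831 against 1447, 1665, 2083 and 1437. Its divisions did not overlap, and the difference was 0.92 ± 0.10 (adjusted p = 0.00116, limma). The small GTPase gene Rasd2, also called Rhes, had 5314, 6170, 8398 and 6415 against 3087, 3800, 5104 and 3909, with 4 differences between 0.70 and 0.78 and a mean of 0.73 ± 0.09 (adjusted p = 0.00145, limma). The regulator of G protein signalling Rgs9 gave 0.77 ± 0.10, the adenylyl cyclase Adcy5 0.81 ± 0.13, the tyrosine phosphatase Ptpn5 (STEP) 0.72 and the phosphatase inhibitor Ppp1r1b (DARPP-32) 0.54. The phosphodiesterase Pde10a, among the brightest of the list with signals of 13088 to 16335 in dorsal striatum, gave 0.48 ± 0.08 (adjusted p = 0.0103, limma). Foxp1, Rarb and Rxrg were the transcription factors of the list that passed, whereas Meis2 (0.19) and Bcl11b (0.31) did not. Ankrd63 gave 0.02 and Rgs14 -0.21, also not past the threshold.

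The list medians of projection neuron genes were 0.54, 0.27, 0.72 and 0.48 in the 4 groups, smallest in SDpcb. The SDpcb pair gave the smallest of the 4 absolute differences for 57 of the 119 dorsal genes and 59 of the 94 ventral genes, and the SHR pair the largest for 65 and 43. Median differences of the dorsal genes were 0.68, 0.54, 0.92 and 0.70, and those of the ventral genes -0.92, -0.55, -1.03 and -0.91. These values describe the pairs, since the same values chose the genes, and with 1 array per division and group the differences between groups were not tested.

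Genes known from earlier work for 1 division were called mainly on that side. Of 11 genes listed for dorsal striatum 6 were higher there, Cnr1, Rgs8, Gpr155, Coch, Rgs4 and Reln, and 1, Nrp2, was higher in ventral striatum. The cannabinoid receptor gene Cnr1 had 4499, 5959, 2876 and 4454 against 1276, 3769, 1412 and 1896, with overlap through the SDpcb ventral array and a difference of 1.18 ± 0.15 (adjusted p = 0.00222, limma). Of 15 genes listed for ventral striatum 6 were higher there, Calcr, Cartpt, Nnat, Hap1, Nts and Zcchc12, 0 were higher in dorsal striatum, and 11 had an unadjusted p under 0.05. Neurotensin (Nts) gave -1.37 and the huntingtin-associated protein gene Hap1 -0.97. Crym and Htr2c of that list gave -0.16 and -0.14 and did not pass. These lists were drawn up with earlier results of these data known and are no independent evidence of direction.

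Among signalling lists, the dopamine list had 5 of 16 called higher in dorsal striatum (Adcy5, Drd2, Pde10a, Pde1b and Ppp1r1b) and 0 in ventral striatum. The shares over all genes were 1.32% and 1.04%, and the list median was 0.26. The 5 are receptor and postsynaptic genes, and the vesicular monoamine transporter gene Slc18a2 gave -0.03. The cyclic nucleotide and RGS list had 7 of 28 called higher in dorsal and 1, Pde1a, called higher in ventral striatum, beside the same shares. Pde1a and Pde1b, both calmodulin-dependent phosphodiesterases, thus passed in opposite directions, with -2.05 and 0.55. Among neuropeptide genes and their receptors, 1 of 23 was higher in dorsal striatum (Cnr1) and 3 in ventral striatum (Cartpt, Nts and Sst). Sst, the somatostatin gene of a class of interneurons, had 1553, 1990, 1567 and 891 against 2501, 2868, 2551 and 1802. Its divisions overlapped, and the difference was -0.73 ± 0.12 (adjusted p = 0.00655, limma).

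Ionotropic and metabotropic receptor genes mostly did not pass. In the glutamate receptor list 1 of 15 did, the AMPA receptor subunit gene Gria4 (0.74 ± 0.15), but its other probe sets gave 0.16 and 0.36 without passing. The count was 0 of 9 for GABA receptors (5 at an unadjusted p under 0.05) and 0 of 7 for serotonin, acetylcholine and noradrenaline receptors (1 unadjusted), by limma. Nearest to the threshold were Gabrb2 (-0.37, adjusted p = 0.0527, limma) and Htr2a (-1.13, adjusted p = 0.05001, limma). Among potassium and calcium channel genes 3 of 26 passed with dorsal higher, Kcnk2, Kcnab1 and Kcnq5, against 1.32% of all genes. Kcnip4, a subunit that modulates Kv4 channels, passed with ventral higher (-0.74 ± 0.11, adjusted p = 0.00492, limma), against 1.04% of all genes.

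Transcription factors passed in both directions, with Foxp1, Ebf1, Rarb and Onecut2 of 26 higher in dorsal and Tshz2 higher in ventral striatum. The other probe sets of Onecut2 gave 0.64 and 0.25, against 0.91 for the brightest, and the second of Ebf1 gave 0.56, and none of these passed (adjusted p = 0.253, 0.76 and 0.515, limma). In the axon guidance and adhesion list, the cadherin gene Cdh8 (1.21 ± 0.16) and Robo2 (0.53) were higher in dorsal striatum. Nrp2 and Slit2 (-0.88 ± 0.18), whose product is a ligand of Robo receptors, were higher in ventral striatum. Of 14 immediate early genes 4 passed with dorsal higher, Egr2 (0.89), Ier5 (0.64), Dusp1 (0.61) and Homer1 (0.43), against 1.32% of all genes. Fos (0.16) and Egr1 (0.27) did not pass. Dusp1 gave 0.08 in WKY and 0.56 to 0.91 in the other groups. Of 40 epigenetic regulators limma called 0 (4 at an unadjusted p under 0.05), with a median of 0.09. The smallest p-values there were those of Mbd2, 0.30 (adjusted p = 0.194, limma), and Hdac1, -0.47 (adjusted p = 0.231, limma).

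**Figure D4:**
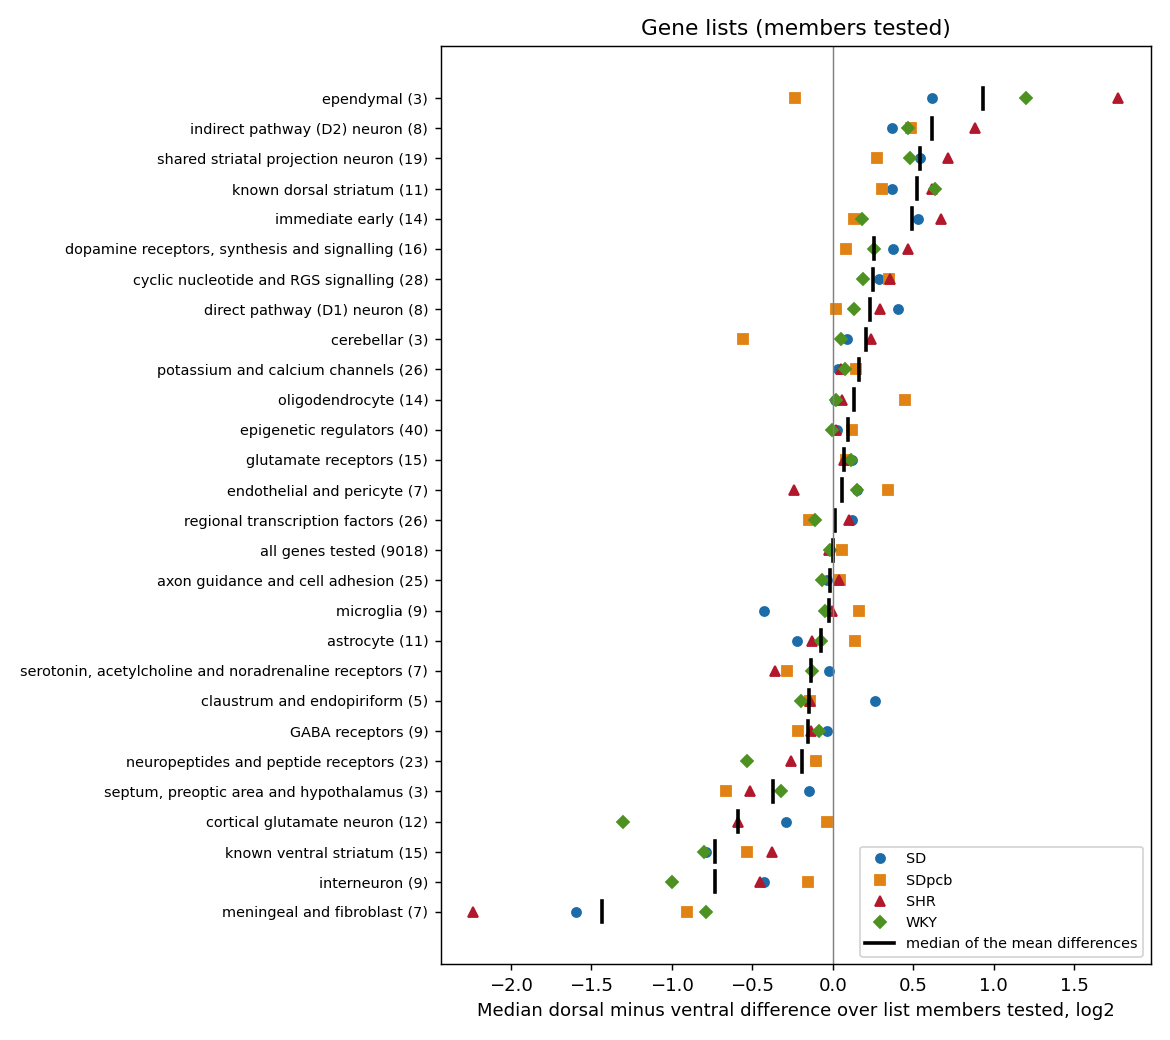
For each gene list with at least 3 members tested (number in parentheses), markers give the median dorsal minus ventral difference of its members in each group and black bars the median of the mean differences. The black bars of the projection neuron lists lie to the right of the bar of all 9018 genes tested, and the markers of the known ventral, interneuron and meningeal lists lie to the left in all 4 groups.

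Among lists of other cell types, the meningeal and fibroblast list held the most calls, and the oligodendrocyte, astrocyte, microglia and endothelial lists held 0. The meningeal and fibroblast list had 5 of 7 tested genes called higher in ventral striatum (Ptgds, Col1a1, Igf2, Aldh1a2 and Igfbp2), against 1.04% of all genes. All 7 were lower in dorsal striatum in all 4 groups, with a median of -1.43. Igf2 and Igfbp2 had dorsal means of 6.525 and 6.546, under the filter of 6.89. These genes passed it through their ventral arrays, which favoured their direction in advance. Of members under the filter, Dcn was higher in dorsal striatum in SD, SDpcb and WKY, Slc22a6 in WKY alone, and Lum and Slc6a13 in no group. The summed signal of the list was 2435 to 4521 in dorsal and 4782 to 21138 in ventral striatum. By group the sums were 4107, 4521, 4134 and 2435 in dorsal and 15432, 5749, 21138 and 4782 in ventral striatum. No member was at 0, and the lowest member signals were 6.06 in dorsal and 24.1 in ventral striatum. Ptgds, the prostaglandin D synthase gene, had 2624, 3595, 3087 and 1629 against 12097, 4111, 14538 and 3476. Slc13a4, Slc6a20a, Gjb2 and Ogn were higher in ventral striatum in the same arrays, and the part of meningeal cells in their differences was not tested.

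Cortical glutamate neuron genes had 2 of 12 called higher in ventral striatum, Cux2 and Tshz2, against 1.04% of all genes. The median was -0.59, with list medians of -0.29, -0.04, -0.59 and -1.30 in the groups. Their summed signal was 33774, 34560, 19277 and 19450 in dorsal and 44118, 33442, 24812 and 27220 in ventral striatum, so that dorsal was higher in SDpcb. Mef2c, with a difference of -0.07, gave a large part of these sums, with signals of 12050 to 22817. No list member was at 0. Of 3 septal, preoptic and hypothalamic genes tested, 1 was higher in ventral striatum, Slc17a6, the vesicular glutamate transporter gene of subcortical neurons (-1.56 ± 0.34). Cux2 had 965, 1944, 715 and 730 against 3075, 2203, 2914 and 2569, and its difference was -0.18 in SDpcb and -2.03 to -1.67 in the other groups. In the ependymal list 0 of 3 passed by limma (2 at an unadjusted p under 0.05). Its member Tmem212 gave 1.05 (adjusted p = 0.0543, limma), with -0.24 in SDpcb and 1.06 to 1.78 elsewhere. The part of cortical or ventricular tissue in the division differences was not tested.

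By limma, 0 of 14 oligodendrocyte, 0 of 11 astrocyte, 0 of 9 microglia and 0 of 7 endothelial genes passed (4, 1, 0 and 1 at an unadjusted p under 0.05), with medians of 0.13, -0.07, -0.02 and 0.06. The claustrum list had 0 of 5 (1 unadjusted) and the cholinergic list 0 of 2 (2 unadjusted). Summed astrocyte signals were 71126 to 100479 in dorsal and 70410 to 122838 in ventral striatum. The choroid plexus, blood cell and cerebellar lists had 1, 1 and 3 members tested and 0 called (0 unadjusted). A p above the threshold does not show equal levels: the 95% interval was -0.39 to -0.03 for Aqp4 of astrocytes and 0.09 to 0.45 for Mobp of oligodendrocytes.

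Levels in the 4 regions outside the striatum, which took no part in the choice of genes, differed between the dorsal and ventral sets. Dorsal striatum exceeded all 4 other regions for 96 of the 119 dorsal genes (80.7%), and both divisions did so for 55 (46.2%). Over all 9018 genes the higher division exceeded the other regions for 25.9% and both did for 11.5%. Among the 94 ventral genes, ventral striatum exceeded all other regions for 9 (9.57%), and at least 1 other region exceeded both divisions for 85 (90.4%), against 74.1% of all genes. Substantia nigra/VTA exceeded both divisions for 66 of the 94 (70.2%, against 44.9% of all genes). Prefrontal cortex did for 52 (55.3%, against 34.2%) and hippocampus for 50 (53.2%, against 34.7%). Vermis did for 38 (40.4%), near its share of 36.9% of all genes. For the 119 dorsal genes substantia nigra/VTA exceeded both divisions once. These are descriptions without a test.

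**Figure D5:**
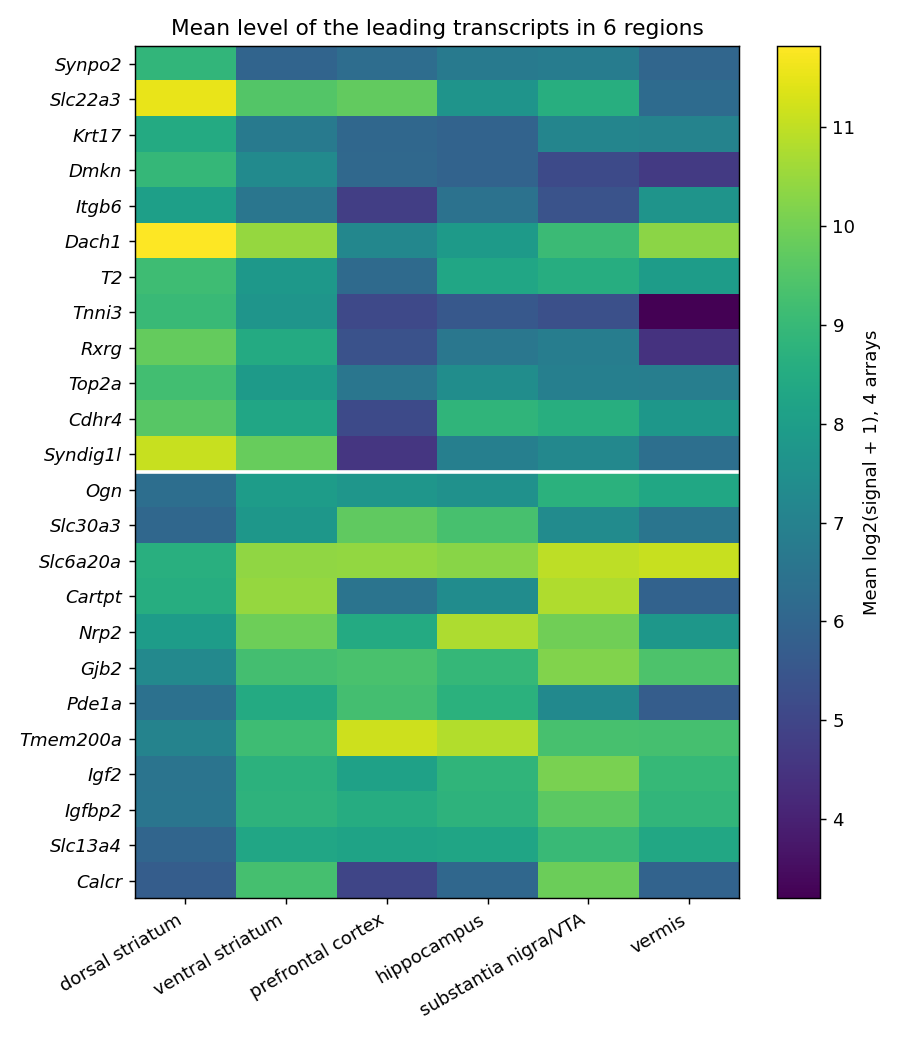
Colour gives the mean log2(signal + 1) of 4 arrays for the 12 leading dorsal genes (above the white line) and 12 leading ventral genes (below it) in 6 regions. All 12 dorsal genes have their highest level in dorsal striatum, and all 12 ventral genes are brighter in some region outside the striatum than in either division.

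Division differences called in 3 groups were looked up in the fourth, whose arrays had not entered the call. With SD left out, 203 of 234 dorsal probe sets (86.8%) and 180 of 229 ventral ones (78.6%) had the same sign in SD, against 54.9% over all probe sets tested. With SDpcb left out the counts were 176 of 207 (85.0%) and 169 of 219 (77.2%), against 56.0%. The calls were fewer with WKY left out, where 63 of 63 and 71 of 74 had the same sign (60.9% over all), and fewest with SHR left out, where 11 of 11 and 14 of 14 did (62.5% over all). The median difference in the group left out was smaller than in the other 3 for SD (0.43 against 0.72 in dorsal probe sets) and SDpcb (0.38 against 0.80), and larger for SHR (1.37 against 1.20).

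The groups disagreed on some bright genes. Cck, the cholecystokinin gene, gave 1.10, -0.31, -0.08 and -2.10, so that its dorsal signal was above the ventral one in SD alone. Pter gave 0.86, -1.34, -0.83 and -1.80. Nrn1, which encodes neuritin, gave -0.96, 0.34, -1.98 and -1.63, and the cerebellin gene Cbln2 gave -0.14, 0.06, -2.47 and -1.33. Dpf1 gave 0.38, 0.07, -1.77 and -0.77. None of these 5 passed (limma), and Ptgds, the sixth gene chosen for its spread, is described with the meningeal genes. Across the probe sets tested the differences of pairs of groups correlated with Pearson r of 0.04 (SD with SDpcb) to 0.38 (SHR with WKY), a description across probe sets, which are not independent.

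The promoters of called genes were read for short motifs, since members that differ together between divisions can be set beside their sequences. RefSeq sequence (GRCr8) from 250 bases before to 50 bases after the gene start was held for 93 of the 119 dorsal and 77 of the 94 ventral genes and for 7555 of the 9018 tested. The MEIS motif TGACAG, on either strand, stood in 24 of 93 dorsal promoters (25.81%), 9 of 77 ventral ones (11.69%) and 15.74% of all. The cAMP response element TGACGTCA stood in 3 of 93 (3.23%), 3 of 77 (3.90%) and 3.45%, the E-box CAGCTG in 21.51%, 18.18% and 15.59%, and TATAAA in 10.75%, 3.90% and 6.09%. The forkhead motif TGTTTAC stood in 3.23%, 0 of 77 and 2.25%, and the EGR motif GCGTGGGCG in 2.15%, 1.30% and 1.14%. TGACAG shares its first letters with TGACGTCA but no match of one is a match of the other. These shares carry no test, and a match is not a site of binding.

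Shown here are the promoters of a pair of dorsal and a pair of ventral genes that hold a match, 5′ to 3′ on the gene's strand. Capitals mark TGACAG or its reverse complement, the E-box beside it in Rxrg, and TGACGTCA in Cartpt and Sst. Rxrg lies at chr13:82276237-82276536 (plus strand), Slc22a3 at chr1:50782968-50783267 (plus), Cartpt at chr2:32991186-32991485 (minus) and Sst at chr11:90461296-90461595 (plus).
Rxrg: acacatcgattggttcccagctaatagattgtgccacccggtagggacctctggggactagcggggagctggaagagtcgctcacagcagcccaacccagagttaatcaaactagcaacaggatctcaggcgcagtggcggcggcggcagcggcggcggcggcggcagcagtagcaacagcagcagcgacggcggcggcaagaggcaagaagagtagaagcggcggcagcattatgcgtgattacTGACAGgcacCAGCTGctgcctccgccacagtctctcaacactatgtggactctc
Slc22a3: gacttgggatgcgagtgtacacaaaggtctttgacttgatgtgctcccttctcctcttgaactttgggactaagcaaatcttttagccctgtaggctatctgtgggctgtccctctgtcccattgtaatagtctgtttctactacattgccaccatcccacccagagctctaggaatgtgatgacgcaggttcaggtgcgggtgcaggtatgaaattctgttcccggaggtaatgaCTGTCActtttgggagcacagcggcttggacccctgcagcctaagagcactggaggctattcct
Cartpt: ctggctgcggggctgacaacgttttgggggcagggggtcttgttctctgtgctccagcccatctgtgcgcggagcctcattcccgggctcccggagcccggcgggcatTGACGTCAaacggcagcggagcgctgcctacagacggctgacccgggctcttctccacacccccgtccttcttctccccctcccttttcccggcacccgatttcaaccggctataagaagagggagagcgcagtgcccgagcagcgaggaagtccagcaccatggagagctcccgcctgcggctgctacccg
Sst: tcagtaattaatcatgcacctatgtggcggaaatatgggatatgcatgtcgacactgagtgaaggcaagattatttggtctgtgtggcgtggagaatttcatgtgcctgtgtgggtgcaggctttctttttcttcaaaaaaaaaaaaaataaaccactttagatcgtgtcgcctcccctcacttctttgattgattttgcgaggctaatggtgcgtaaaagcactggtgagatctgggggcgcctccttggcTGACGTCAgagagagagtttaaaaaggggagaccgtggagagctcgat
Counted from the RefSeq gene start, the match began at -5 in Rxrg, at -14 in Slc22a3, at -142 in Cartpt and at 3 in Sst. Whether transcription begins at that annotated start was not examined. Slc22a3 and Rxrg had differences of 2.04 and 1.31, and Cartpt and Sst of -1.86 and -0.73.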

How the data were processed

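Per the submitters' processing notes the deposited values are MAS5 signals, 1 intensity per probe set and array, on a linear scale. The 2% trimmed mean of each array was close to 500 in the deposited table, the authors' scaling. RNA was purified with RNeasy columns and labelled with the Ovation kit, per the labels. The array number limits the precision, and detection calls and scan dates were not used here.

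Of 31099 probe sets, 57 controls were set aside. Signals were taken as log2(signal + 1), and the 15521 of 31042 probe sets with a mean over the 8 striatal arrays at or above the median (6.89, a signal of 118) were tested. A gene dim in 1 division could pass through the other, as Calcr did with a dorsal mean of 5.725. Among the leading ventral genes Slc13a4 (6.023), Pde1a (6.424), Slc30a3 (6.087), Ogn (6.314), Igf2 and Igfbp2 did so too. Among the leading dorsal genes Synpo2, Krt17 and Itgb6 did, with ventral means of 5.963, 6.722 and 6.574. The filter favoured the direction of these genes in advance. The fit was limma 3.58.1 (R 4.3.3) with group as block and division as term (3 residual degrees of freedom, 9.87 prior), a variance trend, two-sided p-values adjusted by Benjamini-Hochberg over all probe sets and called under 0.05. The platform annotation gave 1 symbol to 20826 probe sets, several to 436 and none to 9780, and 95 of the called probe sets had no symbol and are not described by name. For gene counts, the brightest probe set stood for a gene.

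The pairing comes from the labels, which give both arrays of a group the same rats' group. Deviations from the division means correlated at 0.43 to 0.70 within a group and at -0.45 to -0.06 between groups. Deviations from a mean sum to 0, so negative values between groups are partly built in, and the correlations do not test the pairing. In data simulated for this comparison on 15521 probe sets, limma recovered 24 of 50 changed 1.5-fold, 75 of 100 changed 2-fold and 50 of 50 changed 4-fold, with 9 false calls. The simulated noise was normal, independent between arrays and probe sets, and took its variances from the fit with the trend. It therefore does not give the error rate of the real arrays.

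There were 30 gene lists with 527 genes, 465 measured and 328 tested. The comparison, its members and the lists were chosen with earlier results of these data known. The rule for named genes took the 12 largest called differences in each direction with 1 sign in all groups, Drd2 and Adora2a, up to 3 called members of each list with the smallest p (or 2 uncalled ones), the 6 bright genes with the largest spread between groups and 5 label checks, 84 genes in all, of which the text gives those its comparisons turn on. Other list members, Ak7 and the genes of the closing observations fall outside that rule, and their choice followed a look at their values. The alternatives were other array scalings, pseudocounts, filters, thresholds, variance models and fits without each group.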

Additional observations from a re-analysis of the deposited data

Results flagged for a closer look

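In 7 of the 84 named genes, 1 of the 4 paired differences stood apart from the other 3 by Dixon's criterion. By chance this is met in about 1 gene in 20. The SDpcb pair stood apart for Slc22a3 (1.08, against 2.31 to 2.47 in the other groups), Top2a (0.49, against 1.5 to 1.62), Nnat (-0.95, against -1.139 to -1.138) and Vtn, a gene of pericytes (0.037, against -1.07 to -0.92). In each of these 4 genes the SDpcb difference was the smallest in size. The SHR pair stood apart for Syndig1l (1.49, against 1.19 to 1.23) and Kcnab1 (0.94, against 0.34 to 0.42). The SD pair stood apart for Dmkn (2.78, against 1.15 to 1.26). Whether groups differ in these genes was not tested, since each difference is 1 pair of arrays.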

How the results depend on the processing

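Counts of calls within 1.5 times of those reported came from median centring, cyclic loess, a pseudocount of 16, no filter, the upper 25% of probe sets, a filter over all 24 arrays and the mean of a gene's probe sets. Calls are given as dorsal and ventral, probe sets before genes. Quantile normalization gave 102 ventral probe sets and 78 and 60 genes, array weights 370 and 387 and 225 and 214, all 24 arrays in 1 fit 25 and 73 and 13 and 44. A threshold of 0.1 gave 332 and 299 and 200 and 172, and a log2 difference of at least 1 gave 36 and 62 and 24 and 37. Without a variance trend there were 0 and 1 probe sets and 0 and 1 genes (1994 probe sets at an unadjusted p under 0.05). With no replicate block, so without the pairing, limma called 0 and 0 probe sets and 0 and 0 genes (617 unadjusted). Leaving out a group gave 11 to 234 and 14 to 229 probe sets and 9 to 144 and 7 to 144 genes, each lowest without SHR. Among the uncalled genes named by rule, the mean difference changed sign with 1 group left out for Ctss (-0.18 to 0.025), Calb1 (-0.002 to 0.46), Cbln1 (-0.48 to 0.98) and Cck (-0.83 to 0.24). Other uncalled genes were not counted. The cause was not tested. Signals near background carry no detection call, and n = 4 pairs limits every p.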

Other observations

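A few called genes outside the lists were chosen after their values were seen, with no count or test of a group. Ak7, an adenylate kinase of cilia, gave 2.07, -0.01, 1.5 and 1.63 in SD, SDpcb, SHR and WKY, with a mean of 1.30 ± 0.27 (adjusted p = 0.0277, limma). Cfap144, a cilia and flagella associated gene, gave 1.68, 0.17, 1.78 and 0.88 (adjusted p = 0.0414, limma). Of the ependymal list 0 of 3 passed by limma (2 at an unadjusted p under 0.05), and its members Tmem212 and Dynlrb2 gave -0.24 and -0.41 in SDpcb.

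Troponin T1 (Tnnt1) gave 1.14 ± 0.25 and actinin alpha 2 (Actn2) 0.98 ± 0.16 (adjusted p = 0.0313 and 0.0077, limma). The synaptic scaffold gene Dlgap3 was higher in dorsal striatum (0.64 ± 0.13) and the scaffold gene Shank1 in ventral striatum (-1.11 ± 0.13). The sodium channel subunit gene Scn4b (0.84 ± 0.11), neurogranin (Nrgn, 1.12 ± 0.15) and hippocalcin (Hpca, 0.63 ± 0.12) were higher in dorsal striatum. Camk2d, a subunit gene of calcium/calmodulin-dependent kinase, was higher in ventral striatum with -1.13, -0.70, -1.38 and -1.28 (mean -1.12 ± 0.12, adjusted p = 0.00066, limma).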
